A study of Mus musculus with 12 samples.

Results

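The hairpins of miR-1843a, miR-1843b, miR-3068, miR-3106, miR-3473b and miR-6540, all less known miRNAs, were followed through 12 small RNA libraries. The members are these 6 of the 1087 miRNA names with a hairpin in the mouse annotation, and of the 705 names with a matching read. They were chosen by a measured value, the share of tags that begin at 1 base of the hairpin, as intronic miRNAs with steady starts. The start positions given here therefore describe the members and were not tested. A tag, meaning a distinct insert sequence with its read count, was counted for a member when it matched the hairpin exactly over its full length. Each read counted once, the members held 37076 reads, 0.123% of the 30022027 miRNA reads of the series.

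The libraries came from the hippocampus of C57BL/6NCrl mice, described in the study's methods as males of 6 to 8 weeks. Untreated mice (NT) gave 2 of the libraries. The others, 2 for each time, were made 0.5 h, 1 h, 3 h, 6 h or 24 h after an electroconvulsive shock (ECS), which is a current that makes neurons fire together across the brain. The suffix -1 marks the first time course and -2 the second, which the study made as a biological replicate, and the study describes each library as coming from a single mouse. The suffixes follow the replicate numbers of the deposited labels. For the untreated pair, the study's read counts give more known miRNA reads to its NT-1 than to its NT-2. Here NT-1 had 1067558 miRNA counts and NT-2 had 4282006. The time course of each untreated library is therefore uncertain, and comparisons of the time courses use the deposited numbers. Differences between mice and between library preparations cannot be told apart in the spread behind the p-values.

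A miRNA is cut from a hairpin in a longer transcript, first by Drosha and then by Dicer, and 1 strand of the resulting duplex is loaded into an Argonaute protein. Bases 2 to 8 of the loaded strand, the seed, do most of the pairing with target mRNAs, so the base at which a miRNA starts decides which seed it carries. The 3′ end can be trimmed or extended without changing the seed. Many miRNA hairpins lie in introns of protein-coding genes and are released from the same primary transcript as the mRNA, and some lie inside small nucleolar or Cajal body RNAs.

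The most abundant deposited tag of each main arm, an arm with at least 100 counts over the 12 libraries, is shown because its start sets the seed. The seed is in capitals.
miR-1843a 5′ arm: tATGGAGGtctctgtctgac
miR-1843b 5′ arm: cATGGAGGtctctgtctgact
miR-1843a 3′ arm: tCTGATCGttcacctccatac
miR-1843b 3′ arm: tCCGATCGttcccctccat
miR-3068 5′ arm: tTGGAGTTcatgcaagttctaa
miR-3068 3′ arm: gGTGAATTgcagtactccaa
miR-3106 5′ arm: tGGCTCATttagaagcagcca
miR-3473b 3′ arm: gGGCTGGAgagatggctc
miR-6540 5′ arm: cTAAGGCAggcagacttca
These tags carried between 109 counts for the 3′ arm of miR-1843a and 7056 for miR-3473b. The 5′ arms of miR-1843a and miR-1843b carried the same seed, ATGGAGG, which was the seed of no other of the 658 arms compared. The seed of miR-3473b, GGCTGGA, was shared with miR-3473d and miR-3473e, and the seeds of the remaining 6 main arms were shared with no other arm.

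On GRCm38, 5 of the 6 hairpins lay in an intron of a protein-coding gene on the same strand. Mir1843b (chr1:159340358-159340423, plus strand) lay in intron 18 of Cop1, which encodes an E3 ubiquitin ligase, a gene with 20 exons in the transcript used. Mir1843a (chr12:80391613-80391677, minus strand) lay in intron 5 of Dcaf5, which encodes a substrate receptor of cullin ubiquitin ligases. Mir3068 (chr12:87437679-87437757, minus strand) lay in an intron of Alkbh1, a gene for a nucleic acid demethylase, 639 bp after the exon before it.

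Mir3106 (chr8:16168757-16168838, minus strand) lay in intron 23 of Csmd1, whose transcript of 70 exons encodes a large membrane protein of neurons, 16338 bp after the exon before it. Mir6540 (chr16:42303362-42303469, minus strand) lay in intron 1 of Gap43, which encodes a growth cone protein. The label of the group did not hold for Mir3473b (chr10:41670739-41670793, plus strand), which had no gene on its own strand and lay opposite Ccdc162. Small RNA libraries do not measure the host mRNAs, so host and miRNA levels were not compared.

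The label of steady starts held for some members only. Of the 1794 counts of the 5′ arm of miR-3106, 1792 (99.9%) began at hairpin base 14. Of the 2736 counts of the 5′ arm of miR-6540, 2724 (99.6%) began at base 24. In the other 7 main arms the most used start held between 52.4% and 89.9% of the counts. Over all 404 arms of the series with at least 100 counts the median share at the main start was 96.8%, and 224 of them (55.4%) reached 95%. The 2 members that reached it ranked 41 and 93 among the 404, and the others between 273 and 384.

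**Figure D1:**
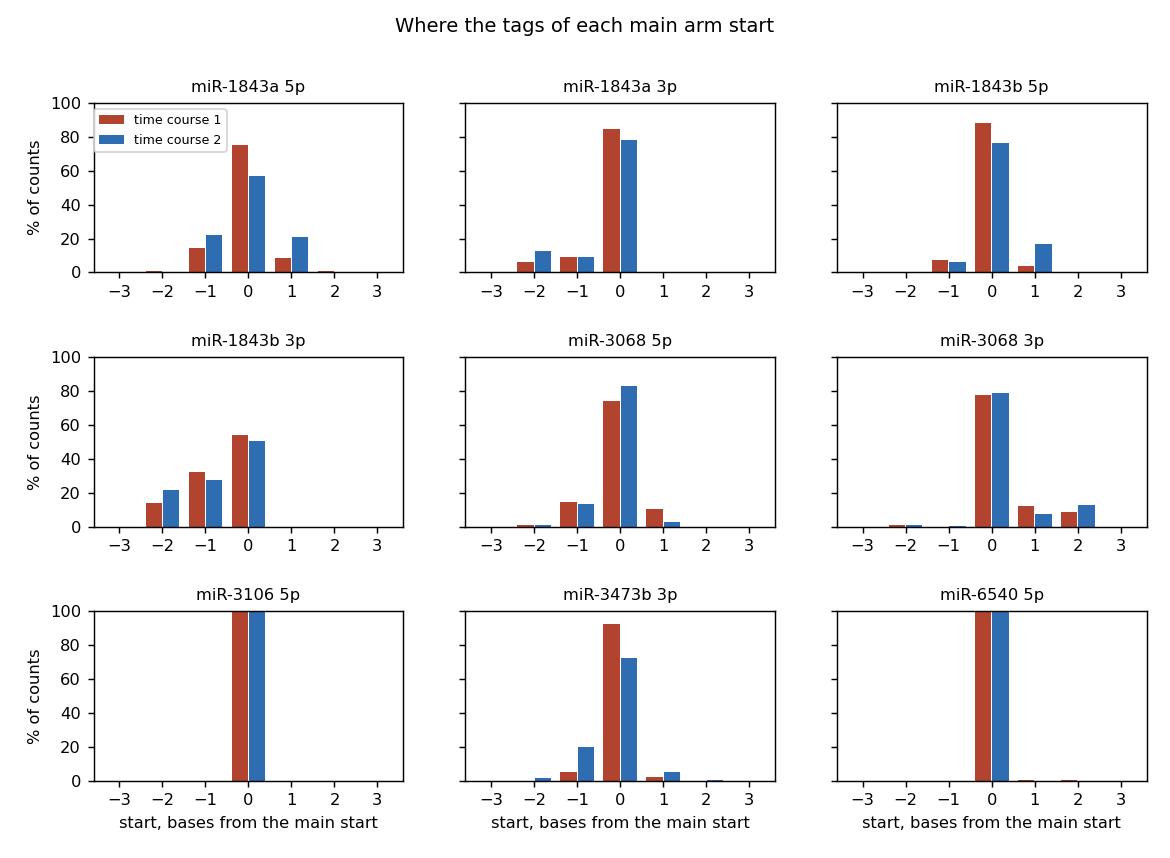
Share of the counts of each main arm (vertical axis, percent) by the base at which tags start, counted from the most used start (horizontal axis, bases), summed over the 6 libraries of time course 1 (red) and time course 2 (blue). The arms of miR-3106 and miR-6540 stand at 1 position, and the arms of miR-1843a, miR-1843b, miR-3068 and miR-3473b spread over neighbouring bases.

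The miR-1843 pair are paralogs, and tags that begin at base 5 of either 5′ arm match both. The 5′ arm of miR-1843a had 6531 matching reads and that of miR-1843b 9348, of which 1993 were shared and were split equally. After the split, 61.6% of the 5534.5 counts of miR-1843a began at base 4 and 17.8% at base 5, while 1106 counts began at base 3. For miR-1843b 81.1% began at base 4, 11.8% at base 5 and 6.79% at base 3. Of the 6 members, 5 had an entry in the RefSeq miRNA table (GRCm38.p6), the exception being miR-3106. The RefSeq 5′ mature sequence of miR-1843a begins at base 4, while that of miR-1843b begins at base 5.
miR-1843a in RefSeq: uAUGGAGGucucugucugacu
miR-1843b in RefSeq: aUGGAGGUcucugucugacuu
In these libraries the tags of miR-1843b that carried the RefSeq seed, UGGAGGU, held 982 counts, and those that carried the seed of miR-1843a held 6775. The 982 counts came from reads shared by both paralogs and were set by the equal split, so how many belong to miR-1843b is not known. The 6775 counts matched miR-1843b alone. With only the tags that match 1 of the paralogs, which leaves out most tags starting at base 5, the share at base 4 was 92.1% for miR-1843b and 75.2% for miR-1843a.

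The use of base 4 differed between libraries. For miR-1843a it was 38.6% of 256.5 split counts in NT-1 and between 82.01% and 85.1% in the other 5 libraries of the first time course. It lay in the second time course between 53.2% and 60.9%. How many other arms of the series differ between the time courses in this way was not counted, so the difference is not particular to this arm. In NT-1, 33.3% of the reads of these 5′ arms matched both paralogs, against 1.02% to 3.70% in the other libraries of the first time course and 16.3% to 25.9% in the second. In NT-1, 51.4% of all miRNA counts were 18 or 19 nt long, against 4.54% to 16.9% in the rest of its time course. The longest deposited tag was 34 nt in NT-1, as in the second time course, and 30 nt in the other 5 libraries of the first. The part of these length differences in the starts was not tested.

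Among reads that matched 1 paralog alone, miR-1843a made up 38.2% over the 12 libraries. The smallest share was that of 3h-1, 7.77% (Wilson 95% interval 6.36% to 9.45%, 90 against 1069 reads), and the largest that of 6h-2, 55.0% (46.7% to 63.0%, 77 against 63 reads). These intervals cover counting error only, since PCR reads are not independent molecules. The mean was 31.8% ± 15.7 (SD, n = 6) for the first time course against 45.9% ± 5.03 (SD, n = 6) for the second. The share was higher in the second at 5 of 6 time points, a difference of 14.1 percentage points that did not pass the exact permutation test of flips within time points (two-sided, p = 0.125, smallest possible 0.03125).

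Both miR-1843 hairpins are also part of annotated small Cajal body RNAs, which guide the modification of spliceosomal snRNAs. Mir1843b covers the 3′ part of Scarna3a, from base 76 of 140, and Mir1843a the 3′ part of Scarna3b, from base 75 of 139. Of 10194 counts that matched Scarna3a, 75 (0.736%) began outside the hairpin. Of 6978 that matched Scarna3b, 29 (0.416%) did. All of these began within the first 3 bases of the Cajal body RNA. Nearly all other reads lay in 2 stacks, 1 for each arm, with 79.5% to 98.3% of the counts of miR-1843a on the 5′ arm in the libraries other than 6h-1. In 6h-1 the 3′ arm of miR-1843a had 0 counts beside 43.5 on the 5′ arm, which allows a share of up to 6.90%.

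The 3′ arms of the pair differed in their starts. For miR-1843a 80.6% of 418 counts began at base 42. For miR-1843b 52.4% of 771 began at base 42, 30.1% at base 41 and 17.5% at base 40, and among libraries with at least 5 counts the most used base was 41 in 1h-1, 24h-1 and NT-2. No tag of miR-1843b began at base 43, where its RefSeq 3′ mature sequence begins. Each of these 3 starts gives another seed.

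Mir3068 overlaps a small nucleolar RNA, a class that guides the modification of other RNAs, which the annotation also calls Mir3068. All 4548 counts that matched this 136-base RNA began inside the hairpin. The 3′ arm of miR-3068 held 3763 counts and the 5′ arm 787. The 3′ arm began at base 52 in 78.0% of counts, at base 54 in 10.5% and at base 53 in 10.05%. In 6h-2, with 25 counts, base 54 was the most used start and base 52 held 32.0%, against 75.9% to 82.3% in the other libraries of that time course. The 5′ arm began at base 11 in 81.2% of counts and at base 10 in 13.5%. Both main starts equal those of the RefSeq mature sequences.

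For miR-3106 and miR-6540, nearly every read came from the 5′ arm. The 3′ arm of miR-3106 had 2 counts, both in 0.5h-2. The 3′ arm of miR-6540 had 15 counts in 8 libraries, all starting at base 64. The RefSeq table lists for miR-6540 the mature sequence of this 3′ arm, which begins at the same base.
miR-6540 3′ arm in RefSeq: uCUGAAGCuugcuuaccucca
The 5′ arm held 98.04% to 100% of the counts of miR-6540 in every library, and its seed, TAAGGCA, was in 99.6% of them.

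The tag of miR-3473b is not particular to its hairpin. The most abundant tag, 18 nt long, occurs in annotated transcripts of 438 genes in the sense direction and of 458 genes in the antisense direction, while the leading tags of the other main arms occurred only in the member and in genes annotated over it. It also matches miR-3473e, with which its reads were split. The hairpin ends at base 55, so an exact match that starts at base 36 can be no longer than 20 nt. Of the split counts 44.7% were 18 nt and 53.0% were 19 nt long. Its 5′ arm had 0 counts beside 12904 matching reads on the 3′ arm. How many of those reads came from this hairpin is not known, so they set no upper limit on its 5′ arm share.

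To see tags that run past the hairpin, every tag holding hairpin bases 37 to 52 was counted, whatever flanked this 16-base core, a count chosen after seeing the data. Such tags held 18500 counts, of which 80.5% began at base 36 and 14.98% at base 35. The library 3h-1 alone gave 10137 of them, with 98.3% at base 36. Without 3h-1 the share at base 36 was 59.1% and that at base 35 was 31.7%. In 24h-1 the larger part, 58.0%, began at base 35. The reverse complement of the core was in 0 tags.

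**Figure D2:**
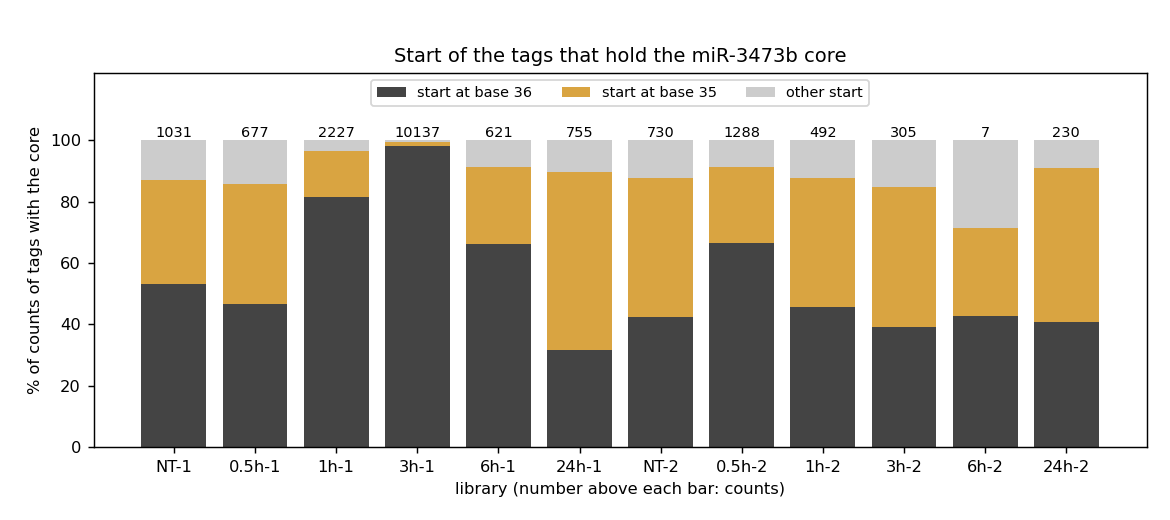
Share of the counts of tags holding the miR-3473b core (vertical axis, percent) that start at hairpin base 36 (dark), 35 (yellow) or elsewhere (grey), in each of the 12 libraries, with the number of such counts above each bar. Base 36 holds 98.3% of 10137 counts in 3h-1 and between 31.5% and 81.6% in the other libraries, of which 6h-2 has 7 counts.

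Part of the reads carried 1 base at the 3′ end that differed from the hairpin and were left out of the counts above. Among tags whose first 18 nt matched, these made up between 5.23% for miR-3473b and 12.2% for the 5′ arm of miR-6540. For miR-6540 they were 417 of 3431 counts, of which 205 ended in A and 174 in U. For the 3′ arm of miR-3068 they were 495 counts, and C was the most frequent such base, with 231. Some of these bases may be sequencing errors, which were not separated. For miR-3473b, whose tag occurs in many other transcripts, the base may also be encoded there or lie past the end of the hairpin.

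Levels were compared as CPM, the counts of an arm relative to the miRNA total of its library, with the totals scaled by TMM. Of the 12 arms, 9 passed the filter of at least 10 counts in at least 2 libraries. The 3′ arms of miR-3106 and miR-6540 and the 5′ arm of miR-3473b did not pass. By median level the 9 ranked from 113 (5′ arm of miR-1843b, 250.2 CPM) to 286 (3′ arm of miR-1843a, 13.5 CPM) among the 469 arms tested. Reads per miRNA also depend on ligation and length, so the order between arms is not an order of molecules.

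The order of the members changed from library to library. The 5′ arm of miR-1843b was the highest of the 9 in 0.5h-1, 24h-1 and all libraries of the second time course but 6h-2. The highest was miR-3473b in 1h-1, 3h-1 and 6h-1, miR-3106 in NT-1 and the 5′ arm of miR-1843a in 6h-2. The most even was the 5′ arm of miR-3068, whose highest library exceeded its lowest 3.58-fold, and miR-6540 followed with 4.25-fold. For miR-3106 this ratio was 128, and 16.6 without its highest library, NT-1. For miR-3473b it was 2003, and 184 without its lowest library, 6h-2, which held 2 split counts.

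**Figure D3:**
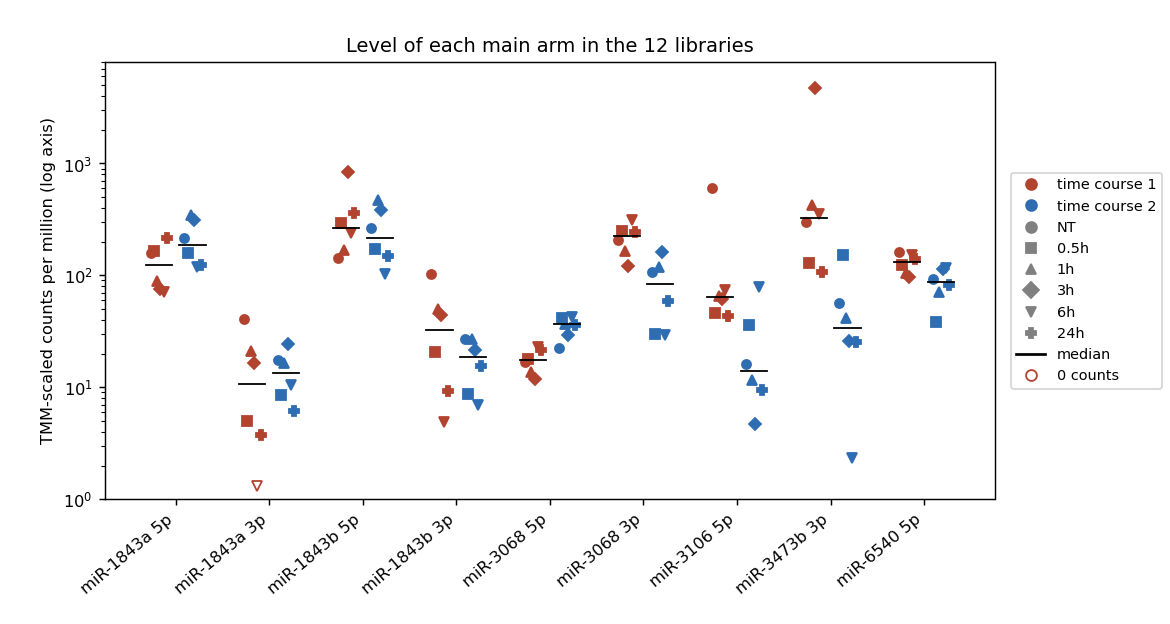
TMM-scaled CPM (vertical log axis) of the 9 main arms in each of the 12 libraries, with time course 1 in red, time course 2 in blue, a shape for each time after ECS and a black bar at the median of 6 libraries. An open symbol at the bottom marks 0 counts, which was the case for the 3′ arm of miR-1843a in 6h-1. miR-3473b stands at 4678 in 3h-1 and miR-3106 at 601 in NT-1, apart from the rest of their time course.

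The libraries held 1897490 to 7657222 accepted reads, of which 439336 (6h-1) to 4282006 (NT-2) were miRNA counts. Neuronal marker miRNAs, 4 of 4 with reads, made up 12.3% to 30.4% of miRNA counts in the first time course and 5.84% to 16.4% in the second. Vessel markers, 3 of 3 with reads, made up 6.30% to 14.5% and 0.565% to 1.65%, nearly all of it miR-143, while miR-126a overlapped, at 0.0143% to 0.0364% and 0.0102% to 0.0249%. Blood and immune markers, 4 of 4 with reads, lay between 0.121% and 1.15% in the first and between 0.0244% and 0.250% in the second. This sum was mostly miR-142, while miR-451a, the marker of red blood cells, lay at 0.000468% to 0.00637% and 0.00242% to 0.0103%, and miR-223 reached only 0.000147% and 0.000103%. Oligodendrocyte markers (2 of 2) lay at 0.273% to 1.40% and 0.392% to 1.82%, and muscle markers (3 of 3) at 0.258% to 1.10% and 0.771% to 1.69%. Choroid plexus markers (1 of 2, miR-211 at 0) reached 0.0347% and the liver marker miR-122 reached 0.0321%. In tissue, fewer cells of a type and less RNA per cell cannot be told apart.

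The time courses were compared to see how far the members repeat between the 2 replicates. The study reports a marked batch effect between them and could not assign it to library making or sequencing. It held that accurate expression changes were unlikely to come from these counts and turned to PCR. Differences between the time courses cannot be told apart from that batch effect here. Of the 9 member arms, 2 differed, both lower in the second time course: miR-3473b and miR-3106. Over all 469 arms tested 152 differed (32.4%), of which 94 were higher and 58 lower (12.4%) in the second. The median log2 difference, second over first, was -0.66 over the member arms and 0.29 over all arms. With scaling to the total miRNA count in place of TMM the all-arm median moved by -0.59 and the calls went to 49 higher and 113 lower, so directions here are relative to the scaling. The summed shares of the neuron, vessel and blood markers were also lower in the second time course by their medians, though miR-126a overlapped and miR-451a was not lower, and their part in these differences was not tested.

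The level of miR-3473b was 4678 CPM in 3h-1, 424 in 1h-1, 351 in 6h-1, 302 in NT-1, 130 in 0.5h-1 and 108 in 24h-1. In the second time course it was 153 in 0.5h-2, 56.9 in NT-2, 41.7 in 1h-2, 25.7 in 3h-2, 25.5 in 24h-2 and 2.34 in 6h-2. By the deposited numbers the groups overlapped only through 0.5h-2. The log2 difference was -3.42 (SE 1.00, edgeR quasi-likelihood test with Benjamini-Hochberg adjustment, adjusted p = 0.0197), and the level was lower at 5 of 6 time points. Leaving out 1 library moved it between -4.25 (without 0.5h-1) and -2.76 (without 6h-1), and without 3h-1 it was -2.89 (adjusted p = 0.0248). Without 1h-1 the call was lost (log2 -3.50, adjusted p = 0.0574). Since time is in the fit, a library left out took its whole time point out of the difference. Without 3h-2 the log2 difference was thus -2.88, close to that without 3h-1. Because the tag of miR-3473b also occurs in many other transcripts, the value cannot be assigned to the hairpin.

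The level of miR-3106 was 601 CPM in NT-1 and 74.7 in 6h-1, 65.7 in 1h-1, 61.9 in 3h-1, 46.2 in 0.5h-1 and 43.4 in 24h-1. In the second time course it was 78.2 in 6h-2, 35.7 in 0.5h-2, 16.1 in NT-2, 11.6 in 1h-2, 9.51 in 24h-2 and 4.70 in 3h-2. All first-course libraries lay above all second-course libraries except 6h-2. The log2 difference was -2.28 (SE 0.72, edgeR quasi-likelihood test with Benjamini-Hochberg adjustment, adjusted p = 0.0277). A library left out again took its whole time point out of the difference, which was -1.74 without NT-1 and -1.72 without NT-2. The time course of NT-1 is uncertain. The call held in 12 of 19 alternatives and was lost without NT-1, 1h-1, 3h-1, 24h-1, NT-2, 1h-2 or 3h-2, each left out in turn (log2 from -2.31 to -1.72, adjusted p from 0.0573 to 0.0807).

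The arms of miR-3068 lay apart in opposite directions without passing the test. Its 3′ arm was at 121, 225 and 315 CPM (lowest, median and highest of 6) in the first time course and at 29.2, 83.01 and 163 in the second, with overlap. The log2 difference was -1.57 (SE 0.61, edgeR quasi-likelihood test with Benjamini-Hochberg adjustment, adjusted p = 0.0611), and 7 of 19 alternatives called it. Its 5′ arm was at 11.8, 17.5 and 22.7 CPM in the first and at 22.5, 36.7 and 42.0 in the second. By the deposited numbers the 5′ arm was higher in the second at 6 of 6 time points. The log2 difference was 1.00 (SE 0.42, adjusted p = 0.0777 by the same test), and 1 of 19 alternatives called it.

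The other 5 arms did not pass the test, with adjusted p from 0.261 to 0.616 by edgeR's quasi-likelihood test. The level of miR-6540 was 97.1, 132 and 162 CPM in the first time course and 38.1, 87.9 and 117 in the second, a log2 difference of -0.66 (SE 0.44). With scaling to the total miRNA count it was called, at -1.29 (adjusted p = 0.0445, edgeR quasi-likelihood test), the only call in 19 alternatives. For the 5′ arm of miR-1843a the values were 71.5, 124 and 218 in the first and 119, 187 and 343 in the second, and the log2 difference was 0.71 (SE 0.52). For the 5′ arm of miR-1843b they were 142, 267 and 842, the last in 3h-1, and 103, 217 and 471, with a log2 difference of -0.38 (SE 0.54). The 3′ arms of the pair had log2 differences of 0.42 (SE 0.61) for miR-1843a and -0.72 (SE 0.50) for miR-1843b.

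Among the other miRNAs in introns of protein-coding genes on the same strand, 180 arms of 129 names were tested, of 506 names. Of these arms 37 were higher and 19 lower in the second time course (31.1% in all), with a median log2 difference of 0.32. The study lists 10 intronic miRNAs as new, a list it drew from these libraries, and miR-3106 is 1 of them. Of the other 9, 5 names had a tested arm. Of their 6 arms, 1 was higher, the 3′ arm of miR-3095 (log2 4.37, edgeR quasi-likelihood adjusted p = 0.00785), and 0 were lower, with a median of 0.12. With miR-3106 there were 7 arms, 1 higher and 1 lower, with a median of -0.55.

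The share of the 5′ arm within a hairpin does not depend on scaling between libraries. For miR-3068 it was 7.58% in NT-1, 6.78% in 0.5h-1, 7.61% in 1h-1, 8.88% in 3h-1, 6.73% in 6h-1 and 8.08% in 24h-1. In the second time course it was 17.5% in NT-2, 58.5% in 0.5h-2, 23.7% in 1h-2, 15.2% in 3h-2, 59.0% in 6h-2 and 37.9% in 24h-2. By the deposited numbers all 6 libraries of the second lay above all 6 of the first. With the uncertain untreated pair exchanged, 17.5% would fall in the first, above 3h-2, and 7.58% in the second. In 0.5h-2 and 6h-2 the arm with more reads switched to the 5′ arm. The Wilson 95% interval was 46.5% to 70.5% in 6h-2, with 61 counts, and 52.6% to 64.2% in 0.5h-2, with 270.

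The mean share was 7.61% ± 0.811 (SD, n = 6) against 35.3% ± 19.8 (SD, n = 6), a difference of 27.7 percentage points. The exact permutation test gave p = 0.03125, the smallest it can give, and 0.156 after adjustment over the 5 hairpins tested. This uses the deposited numbers. With the untreated pair exchanged, the untreated time point would go the other way and p would lie above the smallest. Of the 206 hairpins of the series that could be compared, 41 (19.9%) moved 1 way at every time point, and the median size of the difference was 1.27 points. That of miR-3068 ranked 14. Tags were also longer on average in the second time course, and the part of length in the arm share was not tested.

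**Figure D4:**
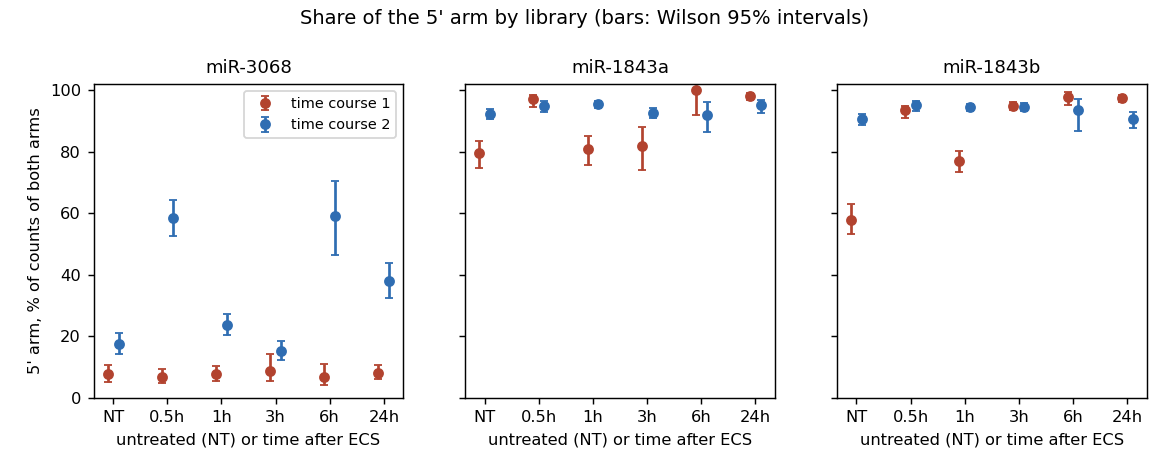
Share of the 5′ arm among the counts of both arms (vertical axis, percent) for miR-3068, miR-1843a and miR-1843b in untreated libraries and at each time after ECS (horizontal axis), with time course 1 in red and time course 2 in blue. Points are single libraries and bars are Wilson 95% intervals of counting error. For miR-3068 the blue points lie between 15.2% and 59.0% and the red ones between 6.73% and 8.88%.

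For the other hairpins the difference did not pass. The share of miR-1843a averaged 89.6% ± 9.74 (SD, n = 6) and 93.8% ± 1.61 (SD, n = 6), with an exact permutation p = 0.34375. That of miR-1843b averaged 86.5% ± 15.98 (SD, n = 6) and 93.2% ± 2.07 (SD, n = 6), with an exact permutation p = 0.4375. The spread in the first time course came from NT-1, at 58.0%, and 1h-1, at 77.1%, beside 93.5% to 97.98% in the rest. For miR-6540 the exact permutation p was 0.375. For miR-3106, with 5 time points and a smallest possible value of 0.0625, the exact permutation p was 1.

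Tags of most members were longer in the second time course. The mean length of miR-6540 was 18.9 nt in NT-1, 19.9 in 0.5h-1, 19.3 in 1h-1, 19.3 in 3h-1, 19.2 in 6h-1 and 20.3 in 24h-1. In the second time course it was 20.6 nt in NT-2, 21.1 in 0.5h-2, 21.1 in 1h-2, 21.1 in 3h-2, 20.6 in 6h-2 and 21.02 in 24h-2. By the deposited numbers the groups did not overlap, with means of 19.5 ± 0.502 (SD, n = 6) and 20.9 ± 0.230 nt (SD, n = 6). The time course of each untreated library is uncertain. With that pair exchanged, 20.6 nt would fall in the first and 18.9 nt in the second, and the groups would overlap. In the first time course 45.7% of its counts were 19 nt long and 2.63% were 22 nt, while in the second these were 7.83% and 29.6%. Since 99.5% and 99.7% of its counts began at the main start, these lengths differed at the 3′ end.

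The differences for 4 arms reached the smallest exact permutation p that 6 time points allow, 0.03125, or 0.0625 after adjustment over 8 arms. These were 1.41 nt for miR-6540, 0.917 for the 3′ arm of miR-3068, 0.735 for the 5′ arm of miR-1843b and 0.534 for that of miR-1843a. These comparisons use the deposited numbers. With the untreated pair exchanged, each of these arms would be shorter in the second time course at the untreated time point. Their p-values would then lie above the smallest possible. Over all 256 arms compared the median difference was 0.752 nt, 250 were longer in the second time course and 215 (84.0%) were longer at every time point, as 6 of the 8 member arms were. The 5′ arm of miR-3068, at 1.61 nt over 4 time points, and miR-6540 ranked 11 and 16 of the 256.

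The lengths of miR-3106 and miR-3473b differed little. For miR-3106 the means were 20.4 ± 0.254 nt and 20.4 ± 0.212 nt (SD, n = 5 each), a difference of 0.0155 nt (exact permutation p = 0.9375). It ranked 250 of the 256 arms, and 53.7% of its counts were 21 nt. For miR-3473b the difference was 0.0456 nt (exact permutation p = 0.5), rank 246. An exact match cannot run past the end of the hairpin. Tags holding the miR-3473b core, whatever flanked it, could run past it. Of their counts 46.9% were 18 nt long, 31.0% were 19 nt and 14.3% were 20 nt. The shortest match counted was 18 nt. The part of either limit in the small difference was not tested. In NT-1, the library with 51.4% of its miRNA counts at 18 or 19 nt, miR-3106 measured 20.4 nt.

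**Figure D5:**
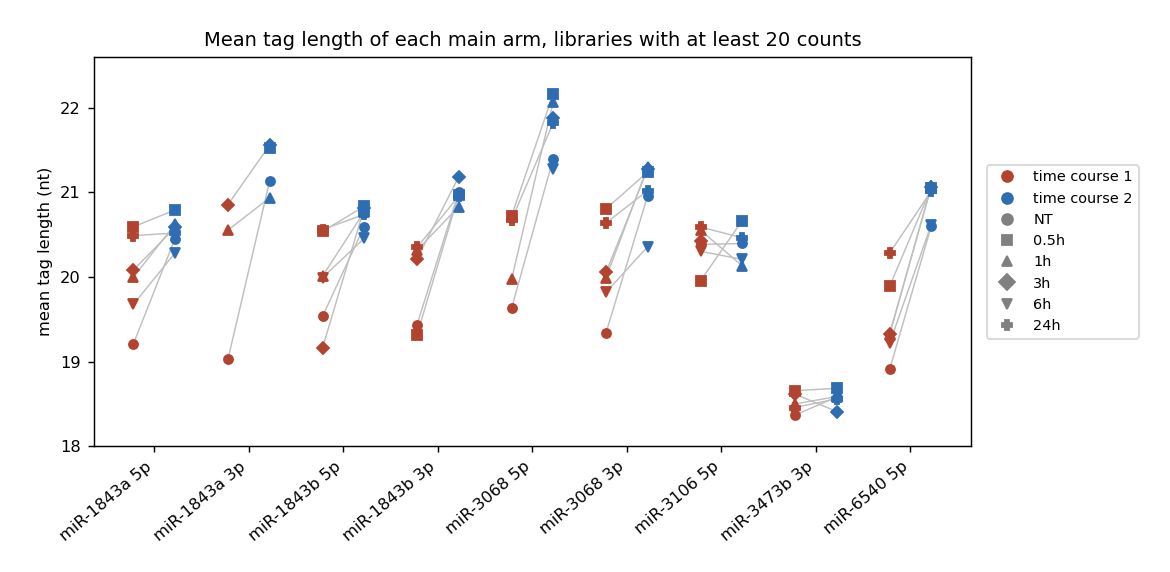
Mean tag length (vertical axis, nt) of the 9 main arms in libraries with at least 20 counts of the arm, with time course 1 in red, time course 2 in blue, a shape for each time after ECS and grey lines joining the libraries of 1 time point. Lines rise for the arms of miR-1843a, miR-1843b, miR-3068 and miR-6540, while those of miR-3106 and miR-3473b go both ways.

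The response to ECS was asked at each time against the untreated libraries, 2 against 2, with the spread shared over all 12. None of the 9 member arms passed at any time, and none of the 469 arms did (0.0% at each of the 5 times and for any difference among the 6 time points) by edgeR's quasi-likelihood test. At an unadjusted p under 0.05 there were between 2 (1 h) and 10 (3 h) of the 469 arms at single times and 13 for any difference. DESeq2 called 9 for any difference, 2 at 3 h and 1 at 0.5 h, none of them a member, and 0 at the other times. Of 45 tests of members at single times 2 had an unadjusted p under 0.05, both of the 3′ arm of miR-1843b, which had a log2 change of -3.43 at 6 h (SE 1.12) and -2.37 at 24 h (SE 1.03).

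The standard errors of the members ran from 0.94 to 2.18 on the log2 scale, so this fit could not detect changes smaller than several fold with 2 libraries a group. Neither this fit nor that of DESeq2 included the time course, so differences between the time courses are part of that spread. The high values of miR-3473b in 3h-1 and miR-3106 in NT-1 had no counterpart in 3h-2, at 25.7 CPM, or NT-2, at 16.1. Without the filter on low counts, the adjusted p of miR-3473b for any difference among the time points was 0.0325 by edgeR's quasi-likelihood test, against 1.00 with the filter.

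Likeness to other arms was measured as Pearson's r of log2 level over the 12 libraries after removing the mean of each time course. Such values share libraries and scaling and are given as a description. For miR-3106 the most alike of 460 arms were the 3′ arms of miR-153 (0.941) and miR-124a (0.920), both known from neurons, and neither fell under 0.906 when any 1 library was left out. For the 5′ arm of miR-1843b they were miR-582 3′ (0.956) and miR-99a 5′ (0.913), and for that of miR-1843a miR-125a 5′ (0.876) and miR-361 3′ (0.841). For the 3′ arm of miR-3068 they were miR-30d 3′ (0.886) and miR-542 3′ (0.881). For miR-6540 they were miR-135a 5′ (0.783) and miR-325 5′ (0.759), at 0.618 and 0.594 within the first time course and 0.834 and 0.836 within the second. For miR-3473b they were miR-143 5′ (0.884) and miR-540 5′ (0.824), which fell to 0.798 and 0.699 without 3h-1. The miR-124a share of miRNA counts was highest in NT-1, at 26.2%, where miR-3106 was highest too.

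Reads of the miR-3473 family were not all concentrated in 3h-1. After the split miR-3473e had 3693 counts on its 5′ arm, 2324 of them in 3h-1, and miR-3473b had 9354, of which 5971 were in 3h-1. The 3′ arm of miR-3473d had 40 of 81 counts in 3h-1 and that of miR-3473f 30 of 143. For miR-3473a the value was 4.67 of 51, with the most in 1h-1 (15.7), and for miR-3473g 0 of 7. Since the reads of these hairpins overlap in sequence, their levels are not independent of each other.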

How the data were processed

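Size-selected small RNA from mouse hippocampus was sequenced by the authors in 12 libraries. The longest deposited tag is 30 nt in the 5 ECS libraries of the first time course. It is 34 nt in the other 7, which are NT-1 and the second time course. Per the labels, RNA was extracted with Trizol, sized by PAGE and cloned with an Illumina small RNA kit, and no molecular identifiers are described. The deposited files list each tag with its raw read counts after the authors' filtering, 1 file for each library, and the counts were not normalized. Here tags were matched exactly, over their full length, to GENCODE M21 hairpins (GRCm38), and a tag matching several miRNAs was split equally. Minimum match length was 18 nt, so shorter products were not analysed. Mature sequences came from RefSeq. Depth is given in the report, and intervals and floors cover counting error only, at the 95% level, with 3 counts as the limit of a count of 0.

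Arms that reached 10 counts in 2 or more libraries were tested with edgeR 4.0.16 (quasi-likelihood, TMM, Benjamini-Hochberg over all arms tested, threshold 0.05), with time as covariate between time courses and 6 groups for ECS. Split counts were rounded to whole numbers for all count tests, and the SE is the log2 difference over the root of its F value. DESeq2 1.42.0 was an alternative. Shares and lengths were compared by an exact two-sided permutation test that flips the libraries of a time point (64 flips), in libraries with at least 20 counts. The count test was tested on simulated data.

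Replicate number marks the time course in the study's text. By the study's read counts, the untreated pair may be numbered the other way round in the deposited labels. As a check of pairing, deviations from the group means correlated between libraries of 1 time course with r from 0.308 to 0.786 over 30 pairs. With 2 libraries in a group, the values of the second time course repeat those of the first. The numbers thus pair the libraries, and the replicate block was run as an alternative. Other alternatives were RLE and total-count scaling, no filter, tags matching 1 miRNA, the first 18 nt of a tag, another count minimum and each library left out. In comparisons of the time courses, which pair libraries by time, a library left out takes its partner out as well. Every member arm with a count was described, arms with at least 100 counts were called main arms, and for each member the 2 most alike arms were named. The members and lists were chosen with earlier results of these data known. Host mRNAs were not analysed here.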

Additional observations from a re-analysis of the deposited data

Results flagged for a closer look

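Within each time course, 49 sets of 4 to 6 libraries (levels, mean lengths, arm shares and the miR-1843a share) were checked for a library far from the others by Dixon's test (95% level), and 6 stood out, where chance gives about 1 in 20, or 2.45. That rate assumes independent sets of normally spread values. These sets share libraries and counts, so 6 against 2.45 cannot show an excess. Start shares were left out, since they chose the members.

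The 5′ arm of miR-1843b made up 0.0716% of miRNA counts in 3h-1, against 0.0213% to 0.0351% in the other libraries of its time course. The mean length of the 3′ arm of miR-3068 was 20.4 nt in 6h-2, against 20.96 to 21.3, and that library held 25 counts of the arm.

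miR-3106 made up 0.0904% of miRNA counts in NT-1, against 0.00419% to 0.0123%. Its 5′ arm share was 98.5% in 0.5h-2, where the others were all at 100%, so that 2 counts alone set it apart.

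miR-3473b made up 0.398% of miRNA counts in 3h-1, against 0.0104% to 0.0797%, and 0.0148% in 0.5h-2, against 0.000151% to 0.00518%.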

How the results depend on the processing

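Of the summary results, 443 values under alternatives kept their direction and side of the threshold or moved by less than the spread. Another 11 moved further and 3 reversed. Shares and lengths with 1 library left out had at most 5 time points, where the exact permutation p cannot be under 0.0625. Those values could not cross the threshold, so the 443 are not a measure of robustness. With DESeq2, 9 arms passed for any difference among the 6 time points, 1 at 0.5 h and 2 at 3 h, against 0. Without the filter these were 9 for any difference and 1 at 3 h. Leaving out 1 library gave 92 (without 1h-1) to 157 arms between the time courses and 0 to 2 (without 3h-2) for any difference. With the replicate block, which the pairing check allowed, 0 arms passed at each time, and the block changed no call. The main start of the 5′ arm of miR-1843b held 92.1% with tags matching 1 miRNA. That of miR-3106 held 99.7% with the first 18 nt and 99.9% to 100% with 1 library left out. For miR-3473b, an alternative chosen after seeing the data, the 16-base core without 3h-1, gave 59.1%. The log2 difference of the 3′ arm of miR-1843a reversed to -0.15 with total scaling, -0.085 without the time covariate, and ran from -0.060 (without 6h-2) to 0.765 with 1 library left out. The length difference of miR-3106 reversed to -0.0460 nt at 5 counts or more and ran from -0.158 to 0.124 nt with 1 library left out. The causes were not tested. Single arms with under 50 counts in a library have wide counting intervals, and 1 library per time point and course limits what could be seen of ECS.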
